A study of Mus musculus with 4 samples.

Results

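The lysosomal machinery of mouse macrophages was followed across 38 genes, which encode lysosomal hydrolases and their activators, lysosomal membrane proteins, subunits of the vacuolar proton pump (V-ATPase) and the MiT factors that drive their transcription. Members were chosen by name, cathepsins excluded, and all 38 were found among the 52550 gene entries of the count files. They comprise 3 MiT factors, 8 membrane proteins, 16 luminal proteins, 4 subunits of the V0 sector of the pump, 6 of its V1 sector and 1 accessory subunit. The RNA-seq libraries hold poly(A) RNA of macrophages grown from the bone marrow of C57BL/6 mice, 8 to 10 weeks old, with 1 library in each of 4 groups: miR-7 deficient with LPS, wild type with LPS, miR-7 deficient unstimulated and wild type unstimulated. LPS, the bacterial lipid sensed by Toll-like receptor 4, was given at 100 ng/mL for 12 h. The labels do not state the allele or method behind the miR-7 deficiency, the sex of the mice or whether animals were pooled.

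Lysosomes break down engulfed and internal material with acid hydrolases, which work only because the V-ATPase pumps protons into the lumen. Its membrane sector, V0, conducts the protons, and its cytosolic sector, V1, hydrolyses ATP to drive them. The MiT factors TFEB, TFE3 and MITF bind E-box motifs in the promoters of many of these genes and enter the nucleus when the kinase complex mTORC1 is inactive. In macrophages this machinery digests phagocytosed particles and dead cells and releases cholesterol from ingested lipids. miR-7 is a microRNA that lowers mRNAs carrying matches to its seed.

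Total counts per library lay between 33937823 and 42074624, and the lowest member count in a library was 88, for Sgsh in wild-type macrophages with LPS. Values below are CPM, counts scaled to a common library size with TMM factors. The macrophage marker list, 8 genes, summed to 13861 CPM in miR-7 deficient and 12314 CPM in wild-type macrophages with LPS, against 22371 CPM in miR-7 deficient and 22037 CPM in wild-type unstimulated macrophages. By the edgeR test described below, 2 of these 8 markers rose with LPS, 2 fell and 4 did not pass, and Lyz2, which makes up most of the sum, was among those that fell. The summed levels of T cell, B cell, neutrophil, dendritic, mast cell, stromal, and erythroid and platelet markers were at or below 21.4 CPM in each library, but some of these sums differed with LPS or between genotypes. With LPS, the 5 mast cell and basophil markers summed to 0.641 CPM in miR-7 deficient and 7.60 CPM in wild-type macrophages. Unstimulated, they summed to 0.153 CPM in miR-7 deficient and 1.15 CPM in wild-type macrophages. The 5 stromal markers summed to 19.1 CPM in miR-7 deficient and 16.6 CPM in wild-type macrophages with LPS, against 1.63 CPM in miR-7 deficient and 2.03 CPM in wild-type unstimulated macrophages; 1 of them, Pdgfrb, was tested and rose. The 5 dendritic cell markers summed to 9.32 CPM in miR-7 deficient and 8.32 CPM in wild-type macrophages with LPS, against 3.59 CPM in miR-7 deficient and 1.56 CPM in wild-type unstimulated macrophages, and 2 of the 3 tested rose. A further list of 5 osteoclast markers summed to 454 CPM in miR-7 deficient and 411 CPM in wild-type macrophages with LPS, and to 405 CPM in miR-7 deficient and 251 CPM in wild-type unstimulated macrophages. Of these 5, 1 rose, 1 fell and 3 did not pass, and their median log2 LPS ratio was -0.30 in the miR-7 deficient and 1.04 in the wild-type pair. In bulk RNA, fewer cells of a type and less RNA per cell cannot be told apart, and the part of cell composition in the results below was not tested.

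The first question was how LPS altered the lysosomal genes. All 38 members passed the filter on low counts and were tested in a model of genotype and LPS fitted to the 4 libraries, in which the pairs of the 2 genotypes stand in for replicates of the LPS effect. By edgeR's quasi-likelihood test (adjusted p under 0.05 over 12730 genes), 11 members fell with LPS, 2 rose and 25 did not pass. Over all genes tested, 16.3% fell and 18.0% rose. The share of members that fell, 28.9%, was thus above that of all genes, and the share that rose, 5.26%, below it, given here as a description of a list chosen by name. Members had a median log2 ratio (LPS over unstimulated) of -0.29 in the miR-7 deficient pair and -0.33 in the wild-type pair, beside -0.05 and -0.02 for all genes tested in those pairs. When 1 of the 4 libraries was left out, 3 to 5 members passed as lower and 0 as higher: 3 without the wild-type unstimulated or the wild-type LPS library, and 5 without the miR-7 deficient unstimulated or the miR-7 deficient LPS library. Of all genes, 4.62% were lower and 8.55% higher without the wild-type unstimulated library, 9.80% lower and 11.4% higher without the wild-type LPS library, 6.04% lower and 9.50% higher without the miR-7 deficient unstimulated library, and 11.5% lower and 13.7% higher without the miR-7 deficient LPS library. These fits hold LPS as their only term and leave 1 library in 1 arm, which is assumed to vary like those of the other arm; with LPS as the only term on all 4 libraries, 9 members were lower and 2 higher. Tfeb, Sgsh and Atp6v0d2 passed in each of the 4 fits. Scaling by total counts in place of TMM shifts the all-gene median of the fitted LPS effect from -0.04 to -0.45 in log2, and on that scale 21 members passed as lower and 0 as higher, beside 30.2% of all genes lower and 12.2% higher. DESeq2's Wald test called 13 members lower and 5 higher, beside 15.2% of all genes lower and 19.3% higher.

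**Figure D1:**
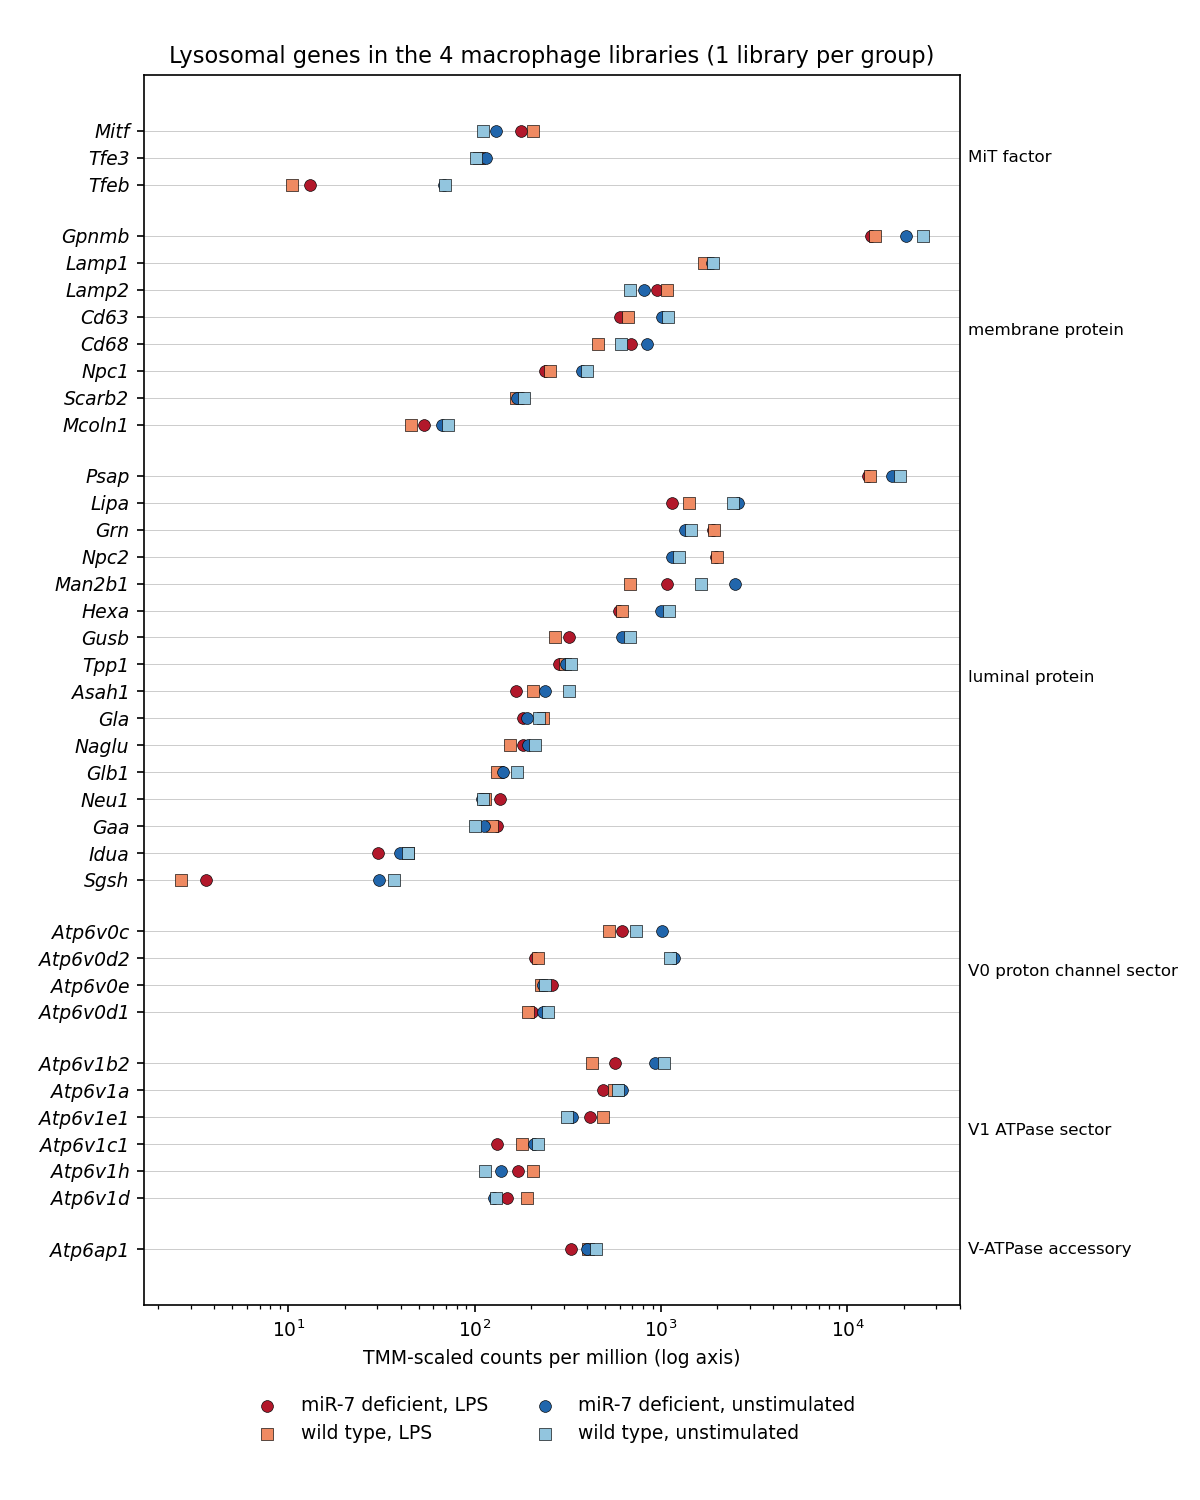
TMM-scaled CPM of the 38 members on a log axis, grouped by class, with 1 point per library (circles, miR-7 deficient; squares, wild type; red, LPS; blue, unstimulated). Red and blue points separate widely for Tfeb, Sgsh and Atp6v0d2 and overlap or lie close for Tfe3, Lamp1 and Scarb2.

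The 3 MiT factors differed in their calls: Tfeb fell with LPS, Mitf rose by a call near the limit, and Tfe3 was not called. Tfeb, the factor best known as the driver of lysosomal genes, had 13.1 CPM in miR-7 deficient and 10.4 CPM in wild-type macrophages with LPS, against 68.1 CPM in miR-7 deficient and 69.2 CPM in wild-type unstimulated macrophages. Both LPS libraries were low and the groups did not overlap: Tfeb fell with LPS by 2.56 on the log2 scale (SE 0.22, edgeR adjusted p 0.000578). Mitf, which encodes a factor of melanocytes, osteoclasts and macrophages, had 177 CPM in miR-7 deficient and 204 CPM in wild-type macrophages with LPS, against 130.1 CPM in miR-7 deficient and 110.5 CPM in wild-type unstimulated macrophages. It rose, with a log2 effect of 0.67 ± 0.20 (SE, edgeR adjusted p 0.0459), close to the limit for a call. The call was lost by total counts and without the filter on low counts. Tfe3 stood at 109.1 CPM in miR-7 deficient and 105.9 CPM in wild-type macrophages with LPS, and at 115.5 CPM in miR-7 deficient and 102 CPM in wild-type unstimulated macrophages. Its 4 values overlapped between the groups (log2 effect -0.01 ± 0.18, SE, edgeR adjusted p 0.958), with a sign that turned under some alternatives.

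Compared per kilobase of exon, so that genes of different length can be set beside each other, the factors stood as follows. In unstimulated cells Tfeb (12.0 in miR-7 deficient, 12.2 in wild type) lay beside Tfe3 (12.5 in miR-7 deficient, 11.0 in wild type), in CPM per kilobase. With LPS, Tfeb stood at 2.30 in miR-7 deficient and 1.84 in wild-type macrophages on this scale, below Tfe3 at 11.8 in miR-7 deficient and 11.4 in wild type. Mitf was the most abundant of the 3 per kilobase in each library, at 28.6 in miR-7 deficient and 33.0 in wild-type macrophages with LPS, against 21.0 in miR-7 deficient and 17.8 in wild-type unstimulated macrophages. The counts do not separate the isoforms of these genes or show where the proteins are.

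**Figure D2:**
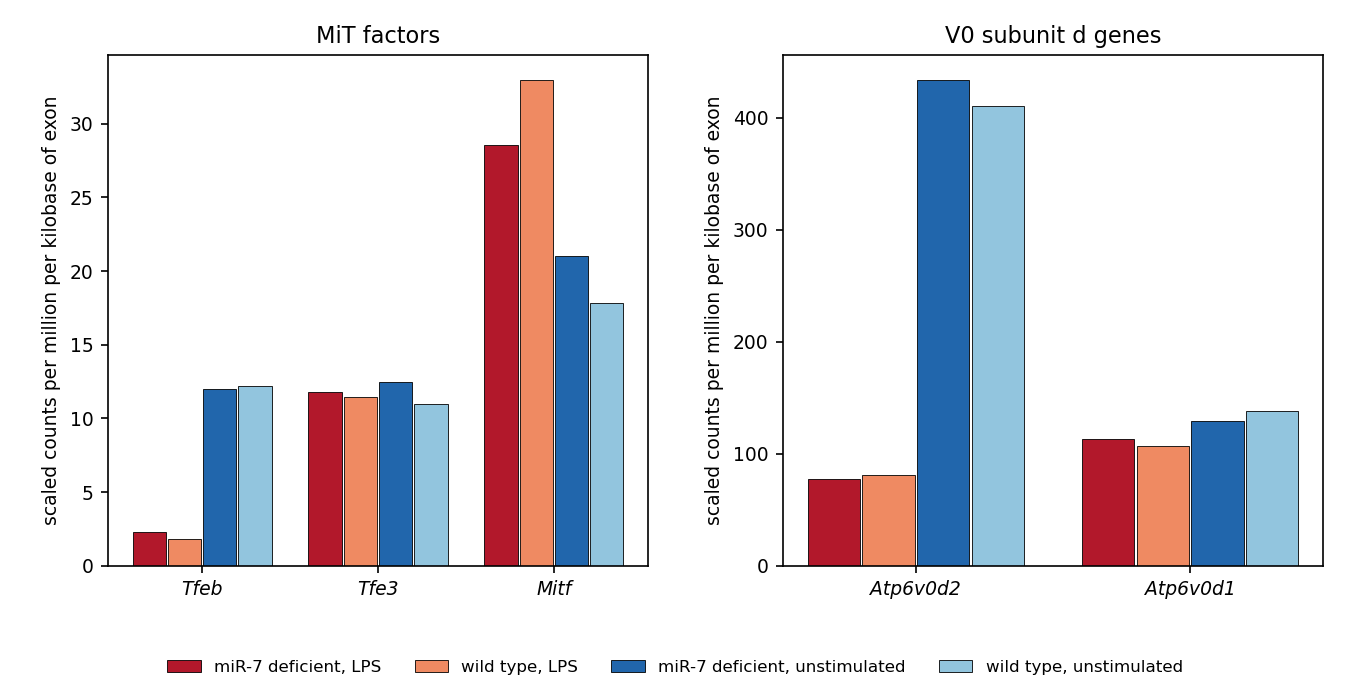
Level per kilobase of exon (TMM-scaled CPM per kilobase, linear axes from 0) of the MiT factors and of the 2 genes for V0 subunit d, with 1 bar per library. The bars of Tfeb and Atp6v0d2 are short in both LPS libraries, those of Tfe3 and Atp6v0d1 are of similar height in all 4, and those of Mitf are taller with LPS.

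Promoters of the members were searched for the E-box CACGTG, the core of the element that MiT factors bind, in RefSeq windows of 250 bases before to 50 after the start (GRCm38.p6). Windows were at hand for 32 of the 38 members, and 10 of the 32 (31.25%) held at least 1 match, beside 7.15% of 32851 windows and 8.09% of 27025 genes in the table. The letters are the same on both strands. The longer TCACGTG, searched on both strands and containing the E-box, was in the same 10 members. It was in 4.29% of all genes and 3.77% of all windows. TCACGTGA was in 5 members, beside 1.12% of all genes and 0.974% of all windows. These backgrounds were not limited to the genes tested here, whereas all members were tested. The members with a match were Atp6v0d1, Atp6v0e, Atp6v1a, Gaa, Gla, Glb1, Lamp1, Mcoln1, Naglu and Sgsh. Lamp1 held 4 matches, and Mcoln1 and Gla 2 each. The windows of Lamp1, Mcoln1 and Gla are shown because they hold more than 1 match, and that of Sgsh because this gene fell most with LPS; each runs 5′ to 3′ on the strand of the gene, with CACGTG in capitals. They lie at chr8:13158911-13159210 (Lamp1, plus strand), chr8:3500269-3500568 (Mcoln1, plus strand), chrX:134600956-134601255 (Gla, minus strand) and chr11:119355461-119355760 (Sgsh, minus strand) of GRCm38.p6.
Lamp1: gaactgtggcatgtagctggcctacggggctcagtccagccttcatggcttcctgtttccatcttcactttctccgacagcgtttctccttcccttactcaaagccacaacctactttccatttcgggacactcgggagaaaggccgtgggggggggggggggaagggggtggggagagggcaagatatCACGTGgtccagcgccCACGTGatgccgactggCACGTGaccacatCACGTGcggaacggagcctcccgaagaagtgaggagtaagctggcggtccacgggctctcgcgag
Mcoln1: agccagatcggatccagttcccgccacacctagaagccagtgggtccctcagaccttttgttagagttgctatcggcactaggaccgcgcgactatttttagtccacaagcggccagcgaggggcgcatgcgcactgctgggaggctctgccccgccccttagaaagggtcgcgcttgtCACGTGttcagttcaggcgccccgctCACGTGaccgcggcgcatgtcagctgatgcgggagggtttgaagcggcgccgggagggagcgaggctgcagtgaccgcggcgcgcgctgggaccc
Gla: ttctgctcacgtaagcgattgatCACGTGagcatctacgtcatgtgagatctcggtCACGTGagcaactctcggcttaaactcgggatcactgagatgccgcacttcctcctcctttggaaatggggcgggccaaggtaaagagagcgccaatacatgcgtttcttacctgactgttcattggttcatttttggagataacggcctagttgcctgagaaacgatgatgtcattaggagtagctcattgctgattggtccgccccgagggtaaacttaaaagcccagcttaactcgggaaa
Sgsh: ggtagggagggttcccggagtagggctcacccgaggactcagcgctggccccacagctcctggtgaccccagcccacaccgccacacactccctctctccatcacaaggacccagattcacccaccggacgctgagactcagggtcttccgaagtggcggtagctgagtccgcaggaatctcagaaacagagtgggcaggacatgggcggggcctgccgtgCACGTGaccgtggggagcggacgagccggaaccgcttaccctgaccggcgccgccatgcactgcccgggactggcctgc

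The first match in each window began 61 bases before the start site in Lamp1, 71 in Mcoln1, 227 in Gla and 29 in Sgsh. Of the 10 members with a match, 1 fell (Sgsh) and 9 did not pass the test. Of the 22 without a match in the window, 7 fell, 2 rose and 13 did not pass. The 6 with no window were Asah1, Atp6v0d2, Atp6v1b2, Atp6v1c1, Atp6v1h and Npc1, and 3 of them fell. Beside these small sets, 16.3% of all genes tested fell and 18.0% rose. The median log2 LPS ratio was -0.08 in the miR-7 deficient pair and -0.26 in the wild-type pair for the members with a match, and -0.29 in the miR-7 deficient pair and -0.13 in the wild-type pair for those without one. The ranges of the sets overlapped, and the sets were not tested against each other. A match in these letters shows no binding, and its lack in this window says nothing of other sites.

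**Figure D3:**
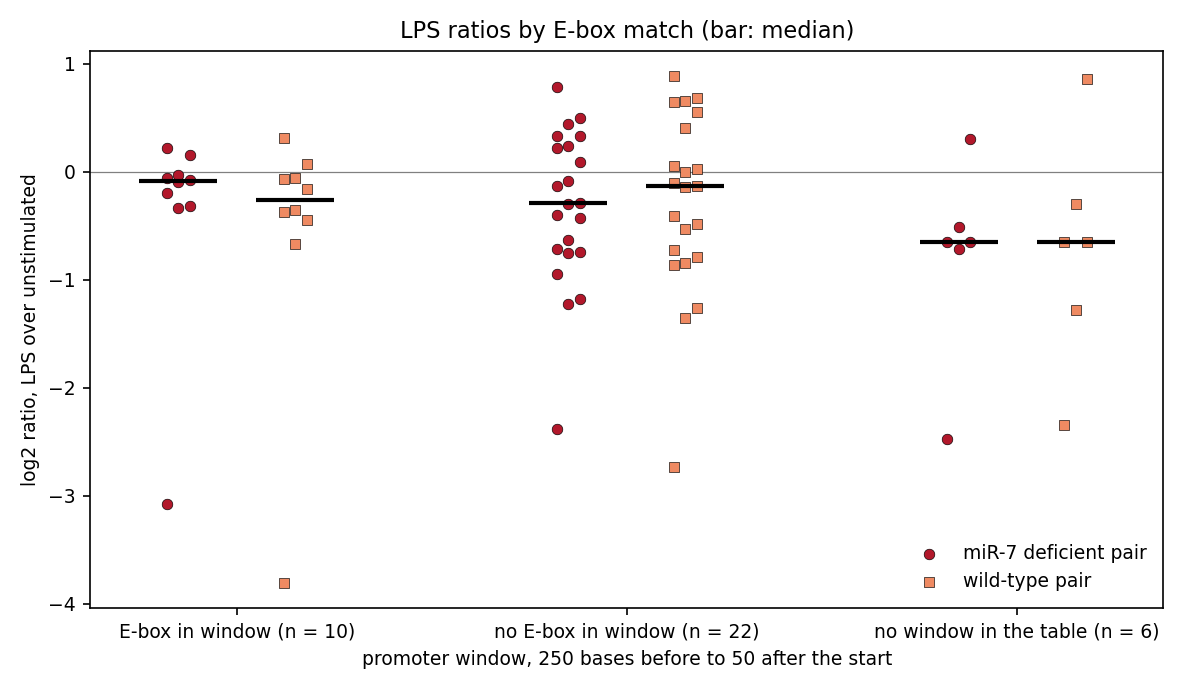
Log2 ratio of LPS over unstimulated for each member in the miR-7 deficient pair (circles) and the wild-type pair (squares), split by whether the promoter window holds CACGTG; bars are medians. The members with an E-box lie between -0.67 and 0.31 apart from Sgsh, the lowest point in each pair.

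Of the 8 membrane proteins, 3 fell with LPS, 0 rose and 5 did not pass the test. Among all genes tested, 16.3% fell and 18.0% rose. Gpnmb, a transmembrane glycoprotein of lysosomes and melanosomes, had 13325 CPM in miR-7 deficient and 13995 CPM in wild-type macrophages with LPS, against 20673 CPM in miR-7 deficient and 25401 CPM in wild-type unstimulated macrophages. It fell by 0.75 on the log2 scale (SE 0.21, edgeR adjusted p 0.0386). This 1 gene took 1.19% of all counts in miR-7 deficient and 1.18% in wild-type macrophages with LPS, against 2.39% in miR-7 deficient and 2.92% in wild-type unstimulated macrophages. Cd63, a tetraspanin of late endosomes and lysosomes, had 600 CPM in miR-7 deficient and 662 CPM in wild-type macrophages with LPS, against 1013 CPM in miR-7 deficient and 1095 CPM in wild-type unstimulated macrophages (log2 effect -0.74 ± 0.20, SE, edgeR adjusted p 0.0297). Npc1, the membrane protein that exports cholesterol from the lysosome, had 239 CPM in miR-7 deficient and 253 CPM in wild-type macrophages with LPS, against 374 CPM in miR-7 deficient and 398 CPM in wild-type unstimulated macrophages (log2 effect -0.65 ± 0.19, SE, edgeR adjusted p 0.0387). For all 3, both LPS libraries lay below both unstimulated ones. Npc1 shares 511 exonic bases with Rmc1 on the opposite strand, which rose with LPS (log2 effect 1.13, edgeR adjusted p 0.0132).

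Lamp1, a heavily glycosylated protein that lines the lysosomal membrane and the most abundant member of this class not called, had 1814 CPM in miR-7 deficient and 1695 CPM in wild-type macrophages with LPS, against 1881 CPM in miR-7 deficient and 1893 CPM in wild-type unstimulated macrophages. Its log2 effect was -0.11 ± 0.20 (SE, edgeR adjusted p 0.718), and the LPS values lay within 0.16 of the unstimulated ones on the log2 scale in both pairs. The others that did not pass were Lamp2, the partner of Lamp1 that also serves chaperone-mediated autophagy, Cd68, a macrophage member of the same family, Scarb2, the receptor that carries glucocerebrosidase to lysosomes, and Mcoln1, a calcium release channel. Fitted effects in these 5 ran from -0.50 for Mcoln1 to 0.45 for Lamp2 in log2. Lamp2 had 952 CPM in miR-7 deficient and 1069 CPM in wild-type macrophages with LPS, and 809 CPM in miR-7 deficient and 678 CPM in wild-type unstimulated macrophages, so its values ran opposite to those of Cd63 and Gpnmb without passing the test (edgeR adjusted p 0.158).

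Among the 16 luminal proteins, 5 fell with LPS, 1 rose and 10 did not pass. The shares of all genes that fell and rose were 16.3% and 18.0%. Sgsh, the sulfamidase that removes sulfate groups during heparan sulfate breakdown, showed the largest fitted change of the 38 members. It had 136 counts (3.63 CPM) in miR-7 deficient and 88 counts (2.65 CPM) in wild-type macrophages with LPS, against 1203 counts (30.7 CPM) in miR-7 deficient and 1734 counts (37.1 CPM) in wild-type unstimulated macrophages. It fell by 3.43 on the log2 scale (SE 0.28, edgeR adjusted p 0.00047), to 0.118 of the unstimulated level in the miR-7 deficient pair and 0.0716 in the wild-type pair. Sgsh shares 955 exonic bases with Card14, a gene on the opposite strand that encodes a scaffold protein of NF-kB signalling. Card14 had 27 counts in miR-7 deficient and 28 counts in wild-type macrophages with LPS, against 395 counts in miR-7 deficient and 481 counts in wild-type unstimulated macrophages, and its log2 effect was -3.70 (edgeR adjusted p 0.000876). Without a stated strand setting, reads over the shared bases cannot be assigned to either gene.

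Man2b1, the lysosomal alpha-mannosidase, had 1070 CPM in miR-7 deficient and 683 CPM in wild-type macrophages with LPS, against 2503 CPM in miR-7 deficient and 1632 CPM in wild-type unstimulated macrophages (log2 effect -1.24 ± 0.20, SE, edgeR adjusted p 0.00539). Gusb, the beta-glucuronidase that acts on glycosaminoglycans, had 319 CPM in miR-7 deficient and 268 CPM in wild-type macrophages with LPS, against 614 CPM in miR-7 deficient and 684 CPM in wild-type unstimulated macrophages (log2 effect -1.15 ± 0.21, SE, edgeR adjusted p 0.00822). Within each genotype, the LPS level of both enzymes was at most 0.52 of the unstimulated level. Lipa, the acid lipase that hydrolyses cholesteryl esters and triglycerides, had 1146 CPM in miR-7 deficient and 1414 CPM in wild-type macrophages with LPS, against 2585 CPM in miR-7 deficient and 2442 CPM in wild-type unstimulated macrophages (log2 effect -0.98 ± 0.22, SE, edgeR adjusted p 0.0162). Hexa, the alpha subunit of beta-hexosaminidase, which degrades GM2 ganglioside, had 596 CPM in miR-7 deficient and 616 CPM in wild-type macrophages with LPS, against 999 CPM in miR-7 deficient and 1104 CPM in wild-type unstimulated macrophages (log2 effect -0.79 ± 0.20, SE, edgeR adjusted p 0.0241). Hexa shares 255 exonic bases with Tmem202 on the opposite strand, which had 55.7 CPM in miR-7 deficient and 72.7 CPM in wild-type macrophages with LPS, against 111 CPM in miR-7 deficient and 102 CPM in wild-type unstimulated macrophages.

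Npc2, the luminal protein that hands cholesterol to Npc1, was the luminal member that rose. It had 1962 CPM in miR-7 deficient and 2000 CPM in wild-type macrophages with LPS, against 1138 CPM in miR-7 deficient and 1244 CPM in wild-type unstimulated macrophages (log2 effect 0.73 ± 0.20, SE, edgeR adjusted p 0.0335), a call lost by total counts. The partners of lysosomal cholesterol export, Npc2 and Npc1, were therefore called in opposite directions, and Lipa, which frees that cholesterol, was called lower. Without the filter on low counts, neither Npc2 nor Npc1 was called, while the call of Lipa held. Psap, the precursor of the saposins that assist sphingolipid hydrolases, was the most abundant luminal member and did not pass the test. It had 12914 CPM in miR-7 deficient and 13187 CPM in wild-type macrophages with LPS, against 17346 CPM in miR-7 deficient and 19066 CPM in wild-type unstimulated macrophages (log2 effect -0.48 ± 0.21, SE, edgeR adjusted p 0.127). Both of its LPS values lay below both unstimulated ones.

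The luminal members that did not pass, beside Psap, were Gaa, Gla, Glb1, Naglu, Idua, Asah1, Neu1, Grn and Tpp1. Among the enzymes of heparan sulfate breakdown, Sgsh and Gusb were thus called lower, while Naglu, an exo-N-acetylglucosaminidase (log2 effect -0.27 ± 0.19, SE, edgeR adjusted p 0.327), and Idua, an iduronidase (-0.20 ± 0.21, SE, edgeR adjusted p 0.516), were not called. Idua shares exonic bases with Dgkq and Slc26a1. Asah1, the acid ceramidase, lay just outside the limit, with a log2 effect of -0.58 ± 0.18 (SE, edgeR adjusted p 0.0535). Its values were 167 CPM in miR-7 deficient and 205 CPM in wild-type macrophages with LPS, against 239 CPM in miR-7 deficient and 322 CPM in wild-type unstimulated macrophages. At the other end, Grn, which encodes progranulin, had 1894 CPM in miR-7 deficient and 1926 CPM in wild-type macrophages with LPS, against 1345 CPM in miR-7 deficient and 1452 CPM in wild-type unstimulated macrophages (log2 effect 0.45 ± 0.20, SE, edgeR adjusted p 0.134). Grn shares 68 exonic bases with Fam171a2, which had at most 5 counts in a library.

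Of the 11 subunits of the proton pump, 2 fell with LPS, 0 rose and 9 did not pass the test. Among all genes tested, 16.3% fell and 18.0% rose. DESeq2's Wald test also called Atp6v0c lower and Atp6v1e1 and Atp6v1h higher, and edgeR on genes with a CPM of at least 10 also called Atp6v0c lower. Atp6v0d2, the form of subunit d known from osteoclasts and macrophages, had 212 CPM in miR-7 deficient and 219 CPM in wild-type macrophages with LPS, against 1179 CPM in miR-7 deficient and 1115 CPM in wild-type unstimulated macrophages. Both LPS libraries were low, at 0.18 of the unstimulated level in the miR-7 deficient pair and 0.196 in the wild-type pair (log2 effect -2.41 ± 0.20, SE, edgeR adjusted p 0.000529). Atp6v0d1, the widely expressed form of the same subunit, had 203 CPM in miR-7 deficient and 192 CPM in wild-type macrophages with LPS, against 232 CPM in miR-7 deficient and 248 CPM in wild-type unstimulated macrophages (log2 effect -0.28 ± 0.18, SE, edgeR adjusted p 0.288). Per kilobase of exon, Atp6v0d2 made up 40.8% of the reads of both d genes in miR-7 deficient (95% interval 40.0 to 41.5) and 42.9% in wild-type macrophages with LPS (42.1 to 43.8), against 77.0% in miR-7 deficient (76.6 to 77.4) and 74.8% in wild-type unstimulated macrophages (74.4 to 75.2). These intervals are exact binomial ones and cover counting error only. Per kilobase, the form with the larger share of the d genes thus differed between LPS and unstimulated libraries in both genotypes. This depended on the length scaling: by counts without it, Atp6v0d2 held the larger share in each library. Those shares were 51.0% in miR-7 deficient and 53.3% in wild-type macrophages with LPS, against 83.6% in miR-7 deficient and 81.8% in wild-type unstimulated macrophages.

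In the V1 sector, Atp6v1b2, the widely expressed form of the nucleotide-binding subunit B, had 566 CPM in miR-7 deficient and 427 CPM in wild-type macrophages with LPS, against 931 CPM in miR-7 deficient and 1035 CPM in wild-type unstimulated macrophages (log2 effect -1.0 ± 0.23, SE, edgeR adjusted p 0.0179). Its partner in the hexamer, Atp6v1a, the catalytic subunit A, had 488 CPM in miR-7 deficient and 556 CPM in wild-type macrophages with LPS, against 616 CPM in miR-7 deficient and 584 CPM in wild-type unstimulated macrophages. That log2 effect was -0.20 ± 0.20 (SE, edgeR adjusted p 0.473), so of the A and B subunits 1 was called and the other was not; the difference between them was not tested. Atp6v0c, the proteolipid that forms the proton-carrying ring, had 618 CPM in miR-7 deficient and 522 CPM in wild-type macrophages with LPS, against 1017 CPM in miR-7 deficient and 730 CPM in wild-type unstimulated macrophages (log2 effect -0.60 ± 0.20, SE, edgeR adjusted p 0.0614). Atp6ap1, an accessory subunit used in pump assembly, had 327 CPM in miR-7 deficient and 405 CPM in wild-type macrophages with LPS, against 401 CPM in miR-7 deficient and 445 CPM in wild-type unstimulated macrophages (log2 effect -0.22 ± 0.19, SE, edgeR adjusted p 0.423).

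Some other pump subunits had fitted effects above 0 without passing the edgeR test. Atp6v1h, the regulatory subunit H, had 171 CPM in miR-7 deficient and 205 CPM in wild-type macrophages with LPS, against 138 CPM in miR-7 deficient and 113 CPM in wild-type unstimulated macrophages (log2 effect 0.58 ± 0.21, SE, edgeR adjusted p 0.0807). The stalk subunits Atp6v1e1 (log2 effect 0.49 ± 0.20, SE, edgeR adjusted p 0.108) and Atp6v1d (0.39 ± 0.19, SE, edgeR adjusted p 0.167) also had both LPS values above both unstimulated ones. Atp6v1c1, which links the V1 stalk to V0 (-0.47 ± 0.19, SE, edgeR adjusted p 0.109), and Atp6v0e, a small V0 subunit (0.05 ± 0.19, SE, edgeR adjusted p 0.86), complete the list. The transcripts of 1 complex thus had fitted effects from -2.41 for Atp6v0d2 to 0.58 for Atp6v1h.

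Per kilobase of exon and averaged over the 4 libraries, the levels of the members ran from 4.19 for Sgsh to 5696 for Psap, with Gpnmb next below it at 2817, followed by Lamp1 at 681. Together the 38 members took 3.81% of all counts in miR-7 deficient and 3.70% in wild-type macrophages with LPS, against 6.87% in miR-7 deficient and 7.46% in wild-type unstimulated macrophages. Psap and Gpnmb held most of that share in each library. These shares are of unscaled counts, on which the median log2 LPS ratio of all genes tested was -0.43 in the miR-7 deficient and -0.46 in the wild-type pair.

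LPS ratios were then set side by side between the genotypes. Lower values with LPS in both pairs were found for 25 members, higher values in both for 9, and opposite directions for 4. How all genes tested split over both pairs was not computed, and only the shares within each pair are given. In each pair, 27 of the 38 members were lower. Of the 12730 genes tested, 6717 were lower in the miR-7 deficient and 6466 in the wild-type pair. By total counts, 35 members were lower in the miR-7 deficient and 32 in the wild-type pair. Beside them stood 8912 and 8671 of the genes tested. Across the 38 members, the LPS ratios of the miR-7 deficient and the wild-type pair, which share no library, correlated with r = 0.955 (Pearson) and rho = 0.911 (Spearman), beside 0.859 and 0.795 over 12489 tested genes with counts in each library. Genes are not independent replicates, and these correlations are a description. In the miR-7 deficient pair, 5 members lay below 2-fold with their whole counting interval (Tfeb, Lipa, Sgsh, Man2b1 and Atp6v0d2) and 0 above it, beside 11.8% of all genes tested below and 12.5% above. In the wild-type pair these were 6 members below (Tfeb, Gusb, Sgsh, Man2b1, Atp6v0d2 and Atp6v1b2) and 0 above, beside 13.3% of all genes below and 14.8% above. No member had LPS effects that differed between the genotypes by more than 1.5-fold with the whole interval of the ratio of ratios. The share of all genes beyond this limit was not computed. Of the members, the highest was Sgsh, whose ratio of the miR-7 deficient over the wild-type effect was 0.72 in log2 (95% counting interval 0.32 to 1.12). It was followed by Atp6v1b2 at 0.56 (0.52 to 0.60), and the lowest was Atp6v1h at -0.56 (-0.63 to -0.48).

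**Figure D4:**
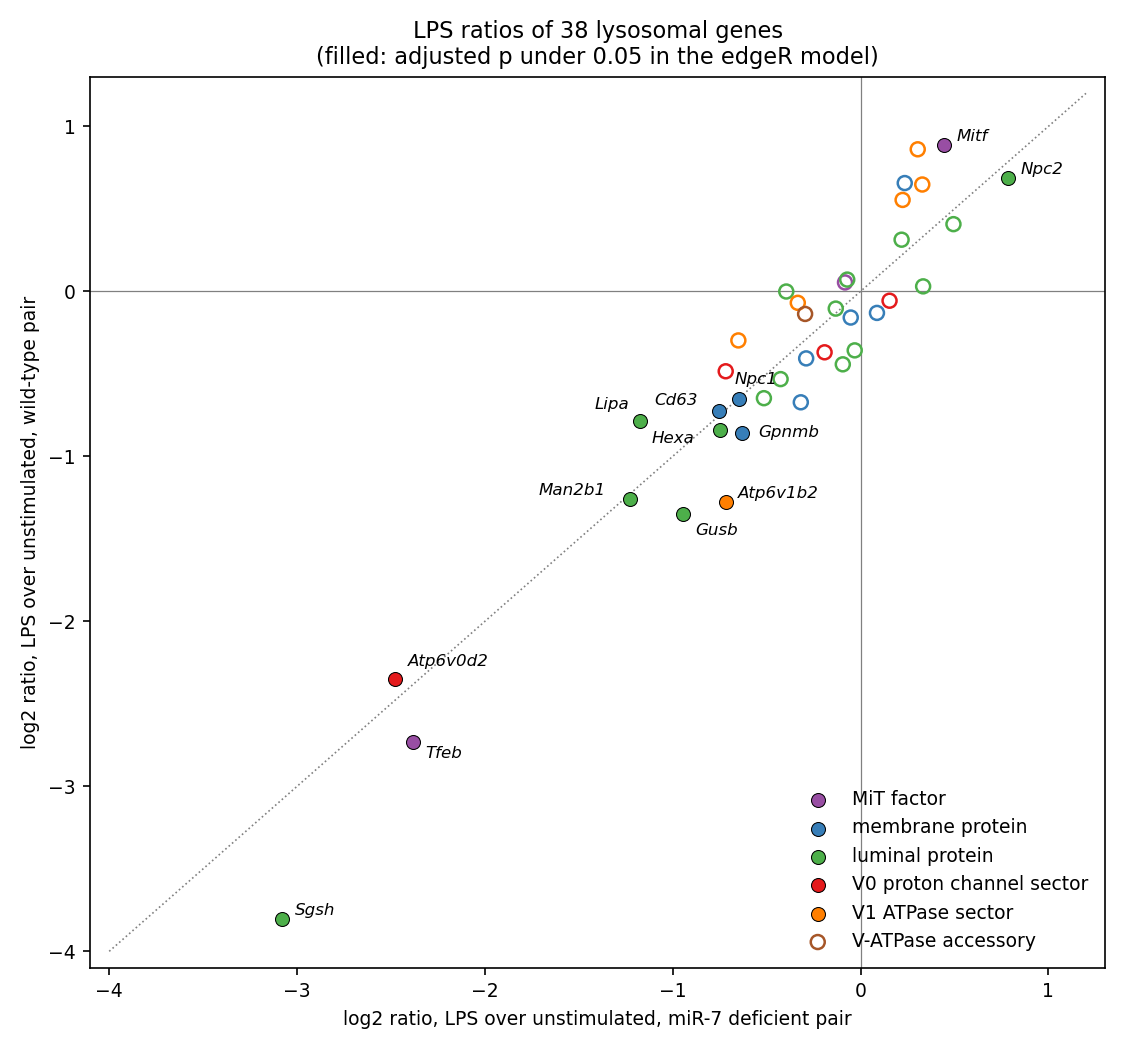
Log2 ratio of LPS over unstimulated for the 38 members, the miR-7 deficient pair on the x axis and the wild-type pair on the y axis, coloured by class and filled where the edgeR model called the gene. Points follow the dotted line of equal ratios, with Sgsh, Tfeb and Atp6v0d2 far from the rest at the lower left.

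The second question was whether miR-7 deficiency altered these genes. No member passed the test for genotype by edgeR's quasi-likelihood test, beside 0.385% of all genes tested that were higher and 0.165% that were lower in miR-7 deficient macrophages. At an unadjusted edgeR p under 0.05 there were 2 members (Man2b1 and Cd68), beside 968 of 12730 genes tested. DESeq2's Wald test called 0 members, beside 1.15% of all genes higher and 0.636% lower. In this test the 2 stimulation states stand in for replicates, so its p measures how alike the 2 genotype pairs are and not the spread among mice. No member lay beyond 2-fold between genotypes with its whole interval, either with LPS, where 2.58% of all genes tested were higher and 3.04% lower, or unstimulated, where 2.82% were higher and 1.41% lower.

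Man2b1 and Cd68 were the members with the highest fitted genotype effects, a choice made after their values were seen. Man2b1 was higher in miR-7 deficient than in wild-type macrophages both with LPS (1070 CPM in miR-7 deficient, 683 CPM in wild type, log2 0.65, 95% counting interval 0.62 to 0.67) and unstimulated (2503 CPM in miR-7 deficient, 1632 CPM in wild type, log2 0.62, interval 0.60 to 0.63), with an edgeR adjusted p of 0.459. Cd68 had 691 CPM in miR-7 deficient against 458 CPM in wild-type macrophages with LPS (log2 0.59, interval 0.56 to 0.62), and 844 CPM in miR-7 deficient against 606 CPM in wild-type unstimulated macrophages (log2 0.48, interval 0.45 to 0.50), with an edgeR adjusted p of 0.558. At the low end, Asah1 had 167 CPM in miR-7 deficient against 205 CPM in wild-type macrophages with LPS, and 239 CPM in miR-7 deficient against 322 CPM in wild-type unstimulated macrophages (fitted log2 -0.36, edgeR adjusted p 0.783). For other members the 2 pairs differed in sign: Sgsh stood 0.45 higher in log2 with LPS and 0.27 lower unstimulated in miR-7 deficient than in wild-type macrophages. Across the 38 members, the genotype ratios with LPS and unstimulated correlated with r = 0.299 (Pearson) and rho = 0.087 (Spearman), again a description over genes of pairs that share no library.

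**Figure D5:**
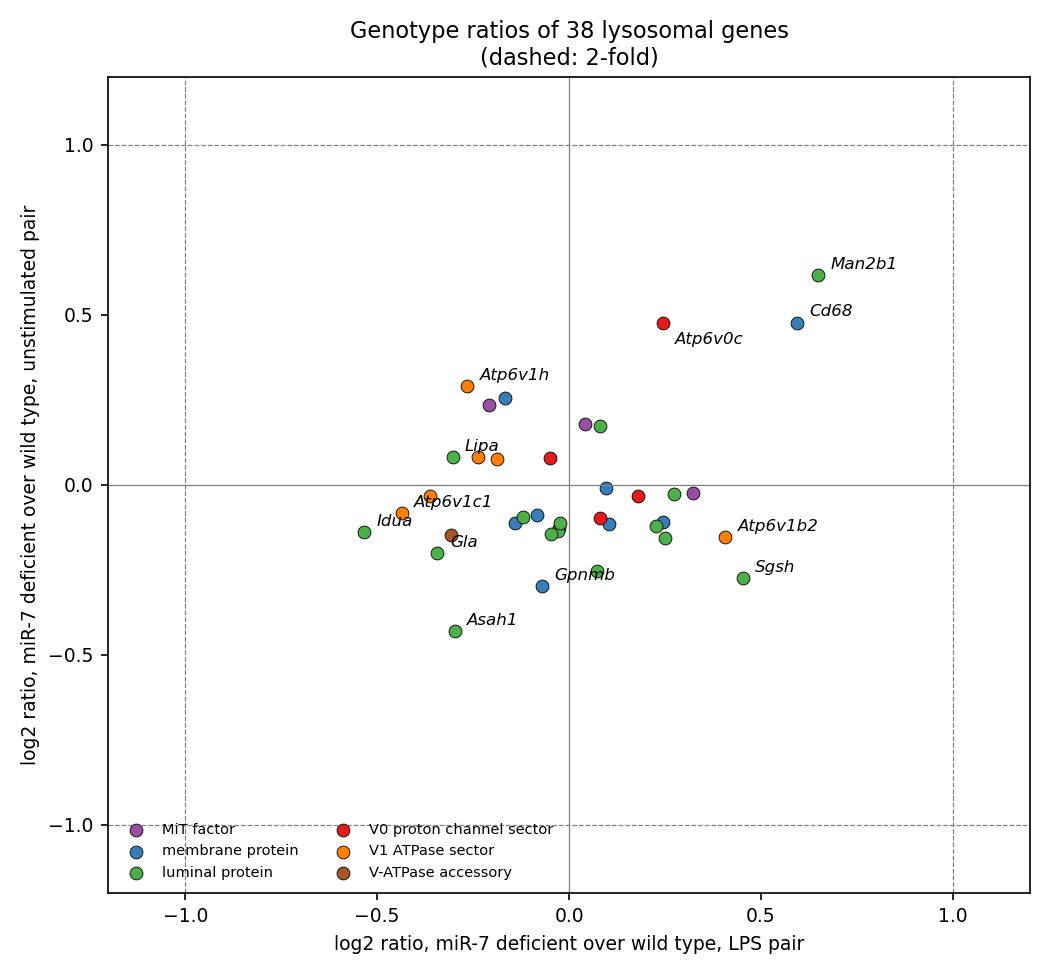
Log2 ratio of miR-7 deficient over wild type for the 38 members, with LPS on the x axis and unstimulated on the y axis; dashed lines mark 2-fold. All points lie inside the 2-fold lines, with Man2b1 and Cd68 at the upper right.

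Since the genotypes differ in miR-7, the 3′ UTRs of the members were searched for its seed match. The mature sequences below (RefSeq, GRCm38.p6) are shown with the seed, bases 2 to 8, in capitals; both forms share it, and miR-7a is made from 2 loci.
miR-7a-5p: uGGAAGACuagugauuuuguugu
miR-7b-5p: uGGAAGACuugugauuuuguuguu

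The 7-base match to this seed is GTCTTCC on the mRNA strand. It occurred in the longest annotated 3′ UTR of 6 of 38 members (15.8%), beside 1613 of 11296 tested genes with such a UTR (14.3%), a share close to the background. Counting any annotated 3′ UTR of the gene, 7 members (18.4%, with Gaa added) and 15.3% of tested genes had a match. The median longest UTR was 1116 bases in members and 1187 bases in tested genes. To show which members carry a match, each is printed with 7 bases on each side and the match in capitals. They lie at chrX:38420909-38420929 (Lamp2, minus strand), chr10:60302218-60302238 (Psap, plus strand), chr19:34493601-34493621 (Lipa, minus strand), chr5:129999738-129999758 (Gusb, minus strand), chr7:105746308-105746328 (Tpp1, minus strand) and chr6:120795309-120795329 (Atp6v1e1, minus strand), on GRCm38 (GENCODE M21).
Lamp2: ccttccaGTCTTCCttgttgg
Psap: ctttcctGTCTTCCcgtctgc
Lipa: tcaaggtGTCTTCCtcagtta
Gusb: ctggtggGTCTTCCtttgcaa
Tpp1: aggttcaGTCTTCCattactg
Atp6v1e1: aggtctaGTCTTCCttctctg

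Psap and Tpp1 were slightly lower in miR-7 deficient than in wild-type macrophages in both pairs (Psap log2 -0.03 with LPS and -0.14 unstimulated; Tpp1 -0.12 with LPS and -0.09 unstimulated). Lamp2 and Lipa, on the other hand, were lower with LPS (-0.17 and -0.30) and higher unstimulated (0.25 and 0.08), as was Atp6v1e1 (-0.24 with LPS, 0.08 unstimulated). Gusb was higher with LPS (0.25) and lower unstimulated (-0.16). No one of these 6 was higher in miR-7 deficient macrophages in both pairs, and by total counts Psap stood at 0.04 with LPS. The share of all genes higher in both pairs was not computed. These ratios were not tested against those of members without a match.

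Other genes of the lysosome were followed in 5 lists. Of 26 further enzymes and activators, 1 rose with LPS, 8 fell and 17 did not pass, beside 18.0% of all genes that rose and 16.3% that fell. The riser was Acp2, a lysosomal acid phosphatase, with 444 CPM in miR-7 deficient and 387 CPM in wild-type macrophages with LPS, against 219 CPM in miR-7 deficient and 184 CPM in wild-type unstimulated macrophages. The lowest fitted changes were those of Galc, the galactosylceramidase (log2 -2.78 ± 0.20, SE), Pla2g15, a lysosomal phospholipase (-1.70 ± 0.18, SE), and Manba, the beta-mannosidase (-1.62 ± 0.22, SE). By total counts 15 of these 26 were lower and 1 higher, on a scale where 30.2% of all genes were lower and 12.2% higher.

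Lysosomal membrane proteins outside the 38 members split: of 22 tested, 5 rose, 4 fell and 13 did not pass. Among all genes tested, 18.0% rose and 16.3% fell. The calls of the list were the same under DESeq2's size factors. By total counts 4 were higher and 11 lower, beside 12.2% of all genes higher and 30.2% lower. The channels among these membrane proteins were called in both directions. Mcoln2, a mucolipin, had 203 CPM in miR-7 deficient and 256 CPM in wild-type macrophages with LPS, against 62.4 CPM in miR-7 deficient and 42.3 CPM in wild-type unstimulated macrophages (log2 effect 2.15 ± 0.27, SE, edgeR adjusted p 0.00196). Mcoln3, a close relative, had 13.5 CPM in miR-7 deficient and 10.6 CPM in wild-type macrophages with LPS, against 122.5 CPM in miR-7 deficient and 106 CPM in wild-type unstimulated macrophages (log2 effect -3.26 ± 0.21, SE, edgeR adjusted p 0.000222). The member Mcoln1, with fitted log2 -0.50, was not called (edgeR adjusted p 0.108). The two-pore channel Tpcn1 fell by 3.64 on the log2 scale (SE 0.24) and the sialic acid exporter Slc17a5 by 1.88 (SE 0.20), while the chloride and proton exchanger Clcn7 (log2 1.8 ± 0.22, SE) and the metal transporter Slc11a1 (1.16 ± 0.19, SE) rose. These 6 calls and both directions stood under each of the 3 scalings.

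Of the 14 genes of mannose 6-phosphate sorting, which delivers hydrolases to lysosomes, 2 rose, 3 fell and 9 did not pass. Among all genes tested, 18.0% rose and 16.3% fell. M6pr, the cation-dependent mannose 6-phosphate receptor, rose by 1.47 on the log2 scale (SE 0.20, edgeR adjusted p 0.00269), and Ap3b1, an adaptor subunit, by 0.97 (SE 0.18). Igf2r, the cation-independent receptor, fell by 0.64 (SE 0.19, edgeR adjusted p 0.0423; not called under DESeq2's size factors), Nagpa, which uncovers the sorting tag, by 0.79 (SE 0.19), and Sort1, a further sorting receptor, by 2.92 (SE 0.19). The 2 mannose 6-phosphate receptors were thus called in opposite directions. Sort1 had 40.7 CPM in miR-7 deficient and 40.4 CPM in wild-type macrophages with LPS, against 307 CPM in miR-7 deficient and 308 CPM in wild-type unstimulated macrophages. By total counts, 2 genes of this list were higher and 6 lower, beside 12.2% of all genes higher and 30.2% lower.

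Of 8 tested pump subunits outside the members, 1 rose, 1 fell and 6 did not pass. The shares of all genes that rose and fell were 18.0% and 16.3%. Here too, alternative forms of 1 pump subunit were called in different directions. Atp6v0a1, a form of the V0 subunit a, fell, with 104 CPM in miR-7 deficient and 100.4 CPM in wild-type macrophages with LPS, against 361 CPM in miR-7 deficient and 429 CPM in wild-type unstimulated macrophages (log2 effect -1.94 ± 0.20, SE, edgeR adjusted p 0.001). Atp6v0a2, the Golgi and endosome form, rose, with 73.2 CPM in miR-7 deficient and 87.8 CPM in wild-type macrophages with LPS, against 45.7 CPM in miR-7 deficient and 43.7 CPM in wild-type unstimulated macrophages (log2 effect 0.84 ± 0.20, SE, edgeR adjusted p 0.0202), a call lost by total counts. Tcirg1, the a3 form of osteoclasts and macrophages, named here after its values were seen, had 1181 CPM in miR-7 deficient and 1011 CPM in wild-type macrophages with LPS, against 855 CPM in miR-7 deficient and 840 CPM in wild-type unstimulated macrophages, and was not called (log2 effect 0.37 ± 0.20, SE, edgeR adjusted p 0.207). Per kilobase of exon Tcirg1 was the highest of these 3 forms in each library.

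Of 23 tested genes that regulate the MiT factors, 0 rose, 4 fell and 19 did not pass, beside 18.0% of all genes that rose and 16.3% that fell. By total counts 12 were lower, beside 30.2% of all genes. Rragd, a Rag GTPase, had 8.97 CPM in miR-7 deficient and 14.5 CPM in wild-type macrophages with LPS, against 36.3 CPM in miR-7 deficient and 37.4 CPM in wild-type unstimulated macrophages (log2 effect -1.69 ± 0.25, SE, edgeR adjusted p 0.00369). Flcn, the folliculin that activates Rag GTPases of this type, fell by 1.22 (SE 0.22), Lamtor4, a subunit of the Ragulator scaffold, by 1.22 (SE 0.21), and Fnip2, a folliculin partner, by 1.09 (SE 0.19). The fourth MiT family member, Tfec, had 41.5 CPM in miR-7 deficient and 30.1 CPM in wild-type macrophages with LPS, against 25.7 CPM in miR-7 deficient and 39.2 CPM in wild-type unstimulated macrophages, values that overlapped between the groups (edgeR adjusted p 0.724).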

How the data were processed

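Per the series design text, reads from poly(A) RNA were called with Casava v1.8.2, trimmed with Cutadapt and aligned with TopHat v2.0.13 and Bowtie2, with exon annotation from Partek; the submitters' processing notes also name HTSeq and mm8. As deposited by the authors, each library has 1 file of raw gene counts, not normalized; strand setting and handling of reads with several positions are not stated. Names, exon lengths and gene positions came from GENCODE M21 (GRCm38), whose IDs without versions matched 52403 of 52550 entries, whatever build was aligned to. With LPS, library totals were 42074624 in the miR-7 deficient and 39178290 in the wild-type library; unstimulated, they were 33937823 in the miR-7 deficient and 40745230 in the wild-type library.

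Genes with a CPM of at least 1 in at least 2 libraries (12730) were fitted with edgeR 4.0.16 (limma 3.58.1, R 4.3.3), TMM scaling and genotype and LPS as additive terms, which leaves 1 residual degree of freedom; p was adjusted by Benjamini-Hochberg over all 12730 genes and called under 0.05. The biological coefficient of variation was 0.247. Standard errors were derived from the F statistic of the test (size of the fitted log2 effect over the root of F). With 1 library per group, p-values compare these libraries, not animals. Ratios of 2 libraries carry exact Clopper-Pearson 95% intervals, and ratios of ratios normal 95% intervals after adding 0.5 counts; intervals cover counting error only, since copies of 1 molecule are not independent. The test was tried on simulated data.

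Of the members, 9 share exonic bases with another gene (Lamp1, Npc1, Hexa, Glb1, Sgsh, Idua, Grn, Atp6v1e1 and Atp6v1h). Promoters and microRNAs were RefSeq sequences (GRCm38.p6). Members, lists and alternatives were chosen with earlier results of these data known. Named were every called member, the most abundant uncalled member of each class, every MiT factor, and up to 3 called genes in each direction of each other list; further names were chosen after their values were seen. Alternatives were DESeq2 1.42.0 size factors and Wald test, total counts, no filter, a CPM of at least 10, each factor alone, other fold limits, a pseudocount of 5, no length scaling, no members sharing exonic bases, and each library left out of a model of LPS. Added after seeing the data were the effects of these filters and left-out libraries on single members, and the calls of the other lists under each scaling. Some results for single marker genes are not reported here.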

Additional observations from a re-analysis of the deposited data

Results flagged for a closer look

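For 3 members the LPS ratio on the TMM scale ran in opposite directions in the 2 genotypes, each with a counting interval that excludes 0. The difference was not tested, since 1 library per group leaves nothing to test it against. Scarb2, the receptor that carries glucocerebrosidase to lysosomes, had a log2 ratio of LPS over unstimulated of 0.09 (95% counting interval 0.04 to 0.14) in the miR-7 deficient pair and -0.13 (-0.18 to -0.08) in the wild-type pair, so the miR-7 deficient ratio exceeded the wild-type one by 0.22 in log2. Gla, the alpha-galactosidase, had -0.07 (-0.12 to -0.02) in the miR-7 deficient pair and 0.07 (0.03 to 0.11) in the wild-type pair, a ratio of ratios of -0.14. Atp6v0e, a small subunit of V0, had 0.15 (0.11 to 0.20) in the miR-7 deficient pair and -0.06 (-0.10 to -0.01) in the wild-type pair. Its ratio of ratios was 0.21. By total counts no direction was opposite. Scarb2 then had log2 ratios of -0.29 in the miR-7 deficient and -0.57 in the wild-type pair. In the same order, Gla had -0.45 and -0.37, and Atp6v0e -0.22 and -0.50. The share of all genes with opposite directions was not computed.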

How the results depend on the processing

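The calls of Tfeb, Sgsh and Atp6v0d2 held in 6 of 6 other models or scalings and in 4 of 4 fits that left out a library; Lipa, Hexa, Gusb and Atp6v1b2 held in the 6, and in 0, 0, 2 and 1 of the 4, and the other 6 calls were lost in at least 1 of the 6. With total counts 0 members were higher and 21 lower (12.2% and 30.2% of all genes), without a filter 0 and 8 (9.03% and 6.92%), with DESeq2's Wald test 5 and 13 (19.3% and 15.2%), and with a CPM of at least 10, 2 and 13 (21.9% and 18.7%). With a library left out 0 were higher and 3 to 5 lower, beside 588 to 1464 lower of 12730 genes; these fits hold LPS as their only term, which on all 4 libraries gave 2 higher and 9 lower. Members beyond the fold limit with LPS numbered 11 in the miR-7 deficient and 13 in the wild-type pair by total counts. With TMM they numbered 14 and 17 at 1.5-fold, and 3 and 3 at 3-fold. Between genotypes, 1 was beyond 1.5-fold with LPS and 1 unstimulated. Shares of all genes under these alternatives were not computed. By total counts the median log2 LPS ratio of all genes tested was -0.43 in the miR-7 deficient and -0.46 in the wild-type pair. The members' median log2 LPS ratio, averaged over both pairs, was -0.24, but -0.65 by total counts, -0.21 by DESeq2's size factors and -0.28 without members that share exonic bases. By total counts the class medians were -0.42 for MiT factors, -0.83 for membrane proteins, -0.64 for luminal proteins and -0.62 for pump subunits. Atp6v0d2's share of the d genes without length scaling was 51.0% in miR-7 deficient and 53.3% in wild-type macrophages with LPS, against 83.6% in miR-7 deficient and 81.8% in wild-type unstimulated macrophages.

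Some uncalled LPS effects turned sign. Tfe3 stood at 0.023 with DESeq2's size factors and its Wald test and 0.0036 without a filter, and Scarb2 at 0.015 with both DESeq2 settings. By total counts Gaa stood at -0.14, Gla at -0.41, Neu1 at -0.23, Atp6v0e at -0.36 and Atp6v1d at -0.020, and Gla stood at -0.020 with a CPM of at least 10. With a library left out, the range was -0.051 to 0.085 for Tfe3, -0.075 to 0.090 for Scarb2, -0.17 to 0.17 for Gla, -0.47 to 0.067 for Idua and -0.041 to 0.14 for Atp6v0e. The cause of these shifts was not tested. No paired analysis was possible because the labels give no replicate numbers, beyond the genotype term, which already sets LPS against unstimulated within each genotype.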

Other observations

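Hgsnat, the membrane enzyme that acetylates heparan sulfate before Naglu acts on it, was the gene among the 5 other lysosomal lists that passed the test for genotype, and it is named after its values were seen. It had 13.2 CPM in miR-7 deficient against 64.7 CPM in wild-type macrophages with LPS, and 29.0 CPM in miR-7 deficient against 117 CPM in wild-type unstimulated macrophages. Its fitted genotype effect was -2.15 ± 0.21 in log2 (SE, edgeR adjusted p 0.0167), so it was lower in miR-7 deficient macrophages in both pairs. A model with genotype alone called 0 of 12730 genes, and 187 at an unadjusted p under 0.05. Hgsnat also fell with LPS, by 0.99 on the log2 scale (SE 0.20, edgeR adjusted p 0.0118). The other heparan sulfate enzymes Sgsh, Naglu, Idua and Gusb did not pass the test for genotype.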
